A study of Mus musculus with 10 samples.

Results

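The genes described here are Trp53, which encodes the transcription factor p53, and 9 of its well-known direct targets, Cdkn1a, Mdm2, Ccng1, Trp53inp1, Zmat3, Phlda3, Sesn2, Bax and Bbc3. They were chosen by gene symbol, and all 10 were found among the 24544 symbols of the count table. Bulk RNA sequencing compared 5 libraries of NEO1+Hoxb5+ with 5 libraries of NEO1-Hoxb5+ long-term hematopoietic stem cells (LT-HSCs) from bone marrow. All cells came from mice of the Hoxb5-mCherry strain at an age of 2 to 3 months, a strain in which a fluorescent protein marks cells that express Hoxb5, and no treatment was named. Cells of both groups were sorted as positive for KIT, SCA1, CD150 and the Hoxb5 reporter and as negative for lineage markers, CD48, FLK2 and CD34. They differed in surface neogenin-1 (NEO1), and the series title sets NEO1 as a marker that parts myeloid-biased from balanced LT-HSCs. Each library held 250 to 500 cells pooled from 2 mice. No label says whether different libraries came from different mice, so the p-values measure the spread between these libraries, which may be in part technical.

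p53 is held at a low level by MDM2, the ubiquitin ligase that marks it for degradation, and is stabilised when DNA damage or other stress breaks that contact. The stabilised protein binds DNA and switches on genes of cell cycle arrest, apoptosis, DNA repair and metabolism, among them Mdm2 itself, which closes a feedback loop. In blood stem cells p53 is known for holding cells in quiescence and for removing damaged cells. Because p53 is controlled mostly at the protein level, its transcript and the transcripts of its targets are separate readouts.

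p53 binds a pair of decamers, each of which follows the p53 consensus. The decamer equals its own reverse complement, so a single search covers both strands. The RefSeq promoter table (GRCm38.p6, 250 bases before to 50 bases after a start) held 8 of the 10 genes, all but Trp53inp1 and Zmat3. An exact decamer stood in at least 1 window of 5 of these 8 genes, namely Trp53, Cdkn1a, Mdm2, Ccng1 and Bax, and in none of the windows of Phlda3, Sesn2 and Bbc3. Of all 27025 genes in the table, 9.55% had such a decamer, and of all 32851 windows 8.36%. A pair of exact decamers with a spacer of 0 to 13 bases was found for Cdkn1a alone among the 8 genes, and for 0.074% of all genes in the table. The stretches that hold them are shown 5′ to 3′ on the strand of the gene, because they are the letters through which these genes could be read by p53, with exact decamers in capitals.
Cdkn1a: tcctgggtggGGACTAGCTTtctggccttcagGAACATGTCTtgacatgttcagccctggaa
Ccng1: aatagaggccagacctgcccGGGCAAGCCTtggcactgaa
Mdm2: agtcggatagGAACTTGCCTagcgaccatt
Bax: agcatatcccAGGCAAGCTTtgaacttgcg
Trp53: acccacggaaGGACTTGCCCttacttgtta
Some of the 8 genes had more than 1 listed start, with 11 windows in all, of which 5 held an exact decamer. Distances here are to the start of the window that held it, which need not be the main start of the gene. The Cdkn1a stretch lies at chr17:29090896-29090957 on the plus strand, with its decamers 73 and 51 bases before the start and a spacer of 12 bases. Directly after the second of these, 41 bases before the start, follows a decamer with 1 mismatch to the consensus. The Ccng1 stretch lies at chr11:40755452-40755491 on the minus strand, and its exact decamer, 185 bases before the start, directly follows one with 1 mismatch. An exact decamer next to one with at most 1 mismatch, by the same spacer limit, occurred in 0.718% of all genes in the table. A mismatch was allowed only outside the fixed C and G of the consensus, here and for the 2 neighbours above. The Mdm2 stretch is at chr10:117710925-117710954 (minus strand, decamer 186 bases before the start), the Bax stretch at chr7:45467080-45467109 (minus strand, 201 bases) and the Trp53 stretch at chr11:69580274-69580303 (plus strand, 75 bases). A match describes letters and is not a measured binding site, and a window without one says nothing about sites elsewhere in the gene.

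Library totals ran from 21.2 to 38.95 M counts (M, mega), and 12800 to 13808 genes had a count in NEO1+ and 11477 to 13147 in NEO1- libraries. The ribosomal RNA gene Rn45s took 27.9 to 37.7% of the counts in NEO1+ and 30.7 to 42.5% in NEO1- libraries, and the TMM factors ran from 0.98 to 1.12 and from 0.87 to 1.06. Values are counts per M counts (CPM) on TMM-scaled library sizes, and a count of 0 allows up to between 0.0699 and 0.144 CPM depending on the library (3 counts, counting error only). Neo1, the gene of the sorting marker, averaged 47.5 ± 20.6 (NEO1+) against 10.7 ± 5.66 CPM (NEO1-) (SD, n = 5 each), but NEO1+ library 4, at 12.5 CPM, lay within the NEO1- range of 4.56 to 18.9 CPM (adjusted p 0.248 in edgeR and 0.00166 in DESeq2). The 9 markers of LT-HSCs and the gate were present in all libraries, with a summed level of 1950 to 2220 CPM (NEO1+) against 1900 to 2330 CPM (NEO1-). Of markers of other cells, 8 neutrophil genes summed to 159 to 4300 CPM (NEO1+) against 148 to 2600 CPM (NEO1-), with library 3 the highest of each group. The 8 erythroid genes summed to 22.8 to 315 and 9.74 to 199 CPM, again highest in library 3 of each group, with Hba-a2, Hbb-bs and Hbb-bt at 0 throughout. The 4 T cell genes summed to at most 2.17 CPM (Cd3e and Cd8a at 0), and 5 endothelial genes to 41.0 to 63.5 and 28.4 to 59.6 CPM (Cdh5 at 0). Among the genes of these marker lists that passed the filter, Neo1 was the 1 gene with an unadjusted p under 0.05.

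Neither Trp53 nor any of its 9 targets differed between NEO1+ and NEO1- cells beyond the spread of the libraries. In edgeR's quasi-likelihood test 0 of the 10 genes passed an adjusted p of 0.05, where 0% of the 12203 genes tested passed, and 0 of 10 had an unadjusted p under 0.05, against 6.6% of all genes. DESeq2 called 1% of the 14599 genes it gave an adjusted p for, and none of the 9 members among them (Zmat3 received no adjusted p). All 10 genes passed the filter on low counts. In none of the 10 genes were the CPM values of the groups apart, against 2.48% of the genes tested. Of the 10 log2 fold changes (NEO1+ over NEO1-) 8 were above 0, with a median of 0.15 and a range from -0.12 to 0.60. Of all genes tested 51% were above 0, with a median of 0.01. The count of 8 was as low as 5 with 1 library left out (NEO1- library 4), when Trp53inp1, Zmat3 and Sesn2 turned below 0.

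**Figure D1:**
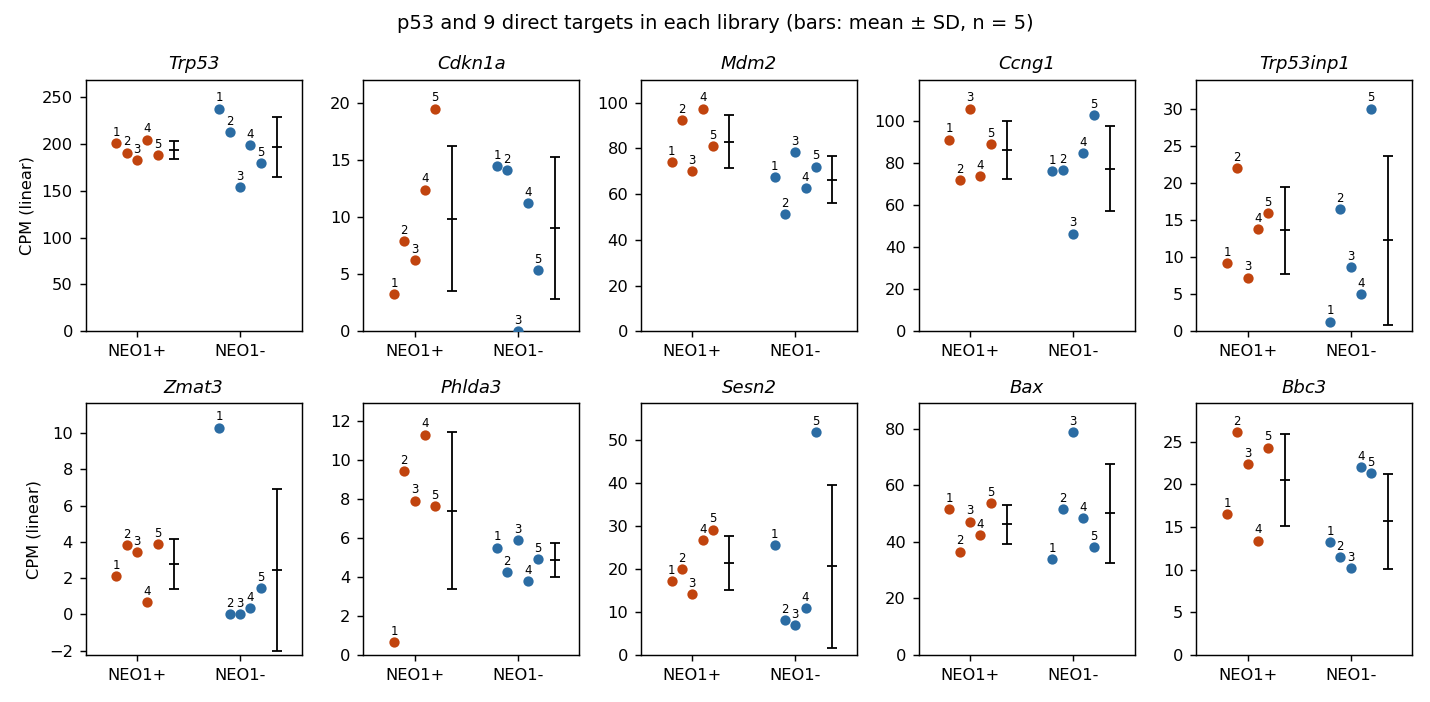
CPM (linear axis, a separate scale for each gene) of Trp53 and 9 direct targets in each library; points carry the library number, and black bars give the mean ± SD of 5 libraries. The groups overlap in all 10 panels, Trp53 has the lowest coefficient of variation in NEO1+ libraries (4.79%), and single libraries stand apart for Zmat3 (NEO1- library 1, 10.3 CPM), Phlda3 (NEO1+ library 1, 0.672 CPM) and Sesn2 (NEO1- library 5, 51.7 CPM).

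Trp53 (GENCODE M21 ENSMUSG00000059552.13, GRCm38 chr11:69580359-69591873, plus strand) was at 201, 191, 183, 205 and 188 CPM in NEO1+ libraries 1 to 5 and at 238, 213, 154, 199 and 180 CPM in NEO1- libraries 1 to 5. All NEO1+ values lay inside the NEO1- range. The means were 194 ± 9.29 and 197 ± 32.0 CPM (SD, n = 5 each). On the log2 scale NEO1+ over NEO1- was -0.02 with a 95% interval from -0.28 to 0.24 (SE 0.12, edgeR adjusted p 0.998). This is the narrowest interval of the 10 genes and corresponds to a ratio between 0.824 and 1.18. The coefficient of variation (SD over mean) was 4.79% in NEO1+ and 16.3% in NEO1- libraries, beside medians of 11.8% and 17.9% over the 1385 tested genes that average above 100 CPM. GENCODE M21 lists a processed pseudogene, Trp53-ps, at chr17:54419680-54420841, which could share reads with Trp53, and how reads with several matches were counted is not given in the sources used here.

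The genes whose centred log2 CPM profile lay closest to that of Trp53 over the 10 libraries were Cnn2, Snrpb and Eef1g. Their root mean square differences from it were 0.0506, 0.0756 and 0.0765 log2 units, where the profile of Trp53 itself had a root mean square of 0.158. Cnn2 encodes a calponin, Snrpb a core protein of spliceosomal particles and Eef1g a translation elongation factor subunit. Like Trp53, Cnn2 had similar means in both groups, which follows from its choice by likeness. They were 206 ± 7.82 (NEO1+) and 210 ± 42.2 CPM (NEO1-) (SD, n = 5 each).

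Of the targets that feed back on p53, Mdm2 had the smallest p of the 10 genes. It was at 74.1, 92.3, 70.1, 97.4 and 80.9 CPM in NEO1+ libraries 1 to 5 and at 67.3, 51.1, 78.4, 62.6 and 72.0 CPM in NEO1- libraries 1 to 5. NEO1+ libraries 1 and 3 lay inside the NEO1- range and the others of that group above it. The log2 fold change was 0.32 (SE 0.16), with a 95% interval from -0.03 to 0.67 and an edgeR p of 0.0691 (adjusted 0.800). Leaving out NEO1- library 3, which had the highest Mdm2 of its group, gave a log2 fold change of 0.39. Its unadjusted edgeR p of 0.0374 (adjusted 0.612) was the smallest with any 1 library left out. Without NEO1- library 2, the lowest of its group, the log2 fold change was 0.24 (edgeR p 0.148, adjusted 0.855). Without NEO1+ library 4, the highest of its group, it was 0.26 (edgeR p 0.167, adjusted 0.9991). Set against Trp53, the CPM of Mdm2 per CPM of Trp53 was 0.369, 0.482, 0.383, 0.474 and 0.429 in NEO1+ libraries 1 to 5 and 0.283, 0.240, 0.510, 0.315 and 0.400 in NEO1- libraries 1 to 5. The highest and the lowest ratios both came from the NEO1- group.

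Ccng1 encodes cyclin G1, which brings a phosphatase to MDM2. It was at 91.3, 71.9, 106, 73.7 and 89.2 CPM in NEO1+ libraries 1 to 5 and at 76.3, 76.8, 46.5, 84.7 and 103 CPM in NEO1- libraries 1 to 5. NEO1- library 3 was low and the remaining values were mixed between the groups. For Ccng1 the log2 fold change was 0.16 (SE 0.20, 95% interval -0.28 to 0.59, edgeR adjusted p 0.988), and without NEO1- library 3 it was 0.02.

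Cdkn1a encodes p21, the inhibitor of cyclin-dependent kinases through which p53 arrests the cell cycle. It was at 3.22, 7.91, 6.20, 12.4 and 19.5 CPM in NEO1+ libraries 1 to 5 and at 14.5, 14.1, 0, 11.2 and 5.33 CPM in NEO1- libraries 1 to 5. The ranges of the groups overlapped, NEO1+ library 5 lay above and NEO1- library 3 below all others, and the latter had no count, which allows up to 0.102 CPM. Means of 9.84 ± 6.35 and 9.03 ± 6.25 CPM (SD, n = 5 each) stood at a log2 ratio of 0.12 (edgeR adjusted p 0.9997). The 95% interval from -2.03 to 2.28 corresponds to a ratio between 0.245 and 4.86. Its coefficients of variation, 64.5% in NEO1+ and 69.2% in NEO1- libraries, stood beside medians of 39.2% and 61.8% over the 3172 tested genes that average 5 to 20 CPM. The closest profiles over the 10 libraries were those of Pbx3, Klhl18 and Dnaaf2. Pbx3 is a homeodomain cofactor (root mean square difference 0.453 log2 units), Klhl18 an adaptor of a ubiquitin ligase (0.568) and Dnaaf2 a dynein assembly factor (0.582). The profile of Cdkn1a itself had a root mean square of 2.28. NEO1- library 3 weighs heavily in it, at -3.98 log2 CPM against 2.43 to 3.87 in the other NEO1- libraries. That value is set by the prior count of 2, so the likeness rests largely on 1 library. An uncharacterised GENCODE locus, AC167363.2, overlaps Cdkn1a (chr17:29090976-29100727) on the other strand, and since strand use in counting is not given, reads from the pair cannot be told apart.

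Phlda3 encodes a pleckstrin-homology protein that restrains AKT signalling. It was at 0.672, 9.44, 7.92, 11.3 and 7.64 CPM in NEO1+ libraries 1 to 5 and at 5.51, 4.26, 5.89, 3.80 and 4.93 CPM in NEO1- libraries 1 to 5. NEO1+ library 1, with 14 counts, lay below all other libraries, and the other NEO1+ libraries lay above all of the NEO1- group. The log2 fold change was 0.60 (SE 0.76, 95% interval -1.03 to 2.23, edgeR adjusted p 0.988), the largest of the 10 genes. Without NEO1+ library 1 it was 0.89 (edgeR p 0.183, adjusted 0.9997), and without NEO1+ library 4 it was 0.39. The groups did not overlap without NEO1+ library 1, which follows directly from the values above and adds nothing to them. Its coefficient of variation was 54.5% in NEO1+ and 17.7% in NEO1- cells, beside medians of 39.2% and 61.8% over tested genes of like abundance.

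Sesn2 encodes sestrin 2, which links stress to lower mTORC1 activity and to antioxidant defence. It was at 17.1, 20, 14.2, 26.6 and 29.1 CPM in NEO1+ libraries 1 to 5 and at 25.5, 8.01, 6.98, 10.8 and 51.7 CPM in NEO1- libraries 1 to 5. The NEO1+ values lay inside the wider NEO1- range. Nearly equal means of 21.4 ± 6.28 and 20.6 ± 18.9 CPM (SD, n = 5 each) stood at a log2 ratio of 0.05 (SE 0.52, edgeR adjusted p 0.9997). Without NEO1- library 5, whose 51.7 CPM was the highest value of the gene, it was 0.74 (edgeR p 0.125, adjusted 0.762). A GENCODE locus on the same strand, Gm12981, overlaps Sesn2 (chr4:132492032-132510501), so their counts may not be separable.

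Trp53inp1 encodes a stress-induced nuclear and autophagy protein that enhances p53 function. It was at 9.17, 22.1, 7.25, 13.8 and 16 CPM in NEO1+ libraries 1 to 5 and at 1.31, 16.5, 8.70, 4.98 and 30.1 CPM in NEO1- libraries 1 to 5. The NEO1- values enclosed those of NEO1+ cells, and NEO1- library 5 was again the highest. The log2 fold change was 0.15 (SE 0.67, 95% interval -1.30 to 1.59, edgeR adjusted p 0.998), and 0.79 without NEO1- library 5. Sesn2 and Trp53inp1 thus shared their highest library, and their coefficients of variation in the NEO1- group were 91.9% and 92.7%, beside 29.3% and 42.9% in the NEO1+ group. Tested genes of like abundance also varied more in NEO1- libraries. Their medians were 37.2% (NEO1-) and 24.4% (NEO1+) at 20 to 50 CPM, the band of Sesn2. At 5 to 20 CPM, the band of Trp53inp1, they were 61.8% and 39.2%.

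Zmat3, which encodes an RNA-binding zinc finger protein, was the least abundant member. It was at 2.11, 3.84, 3.43, 0.669 and 3.86 CPM in NEO1+ libraries 1 to 5 and at 10.3, 0, 0, 0.365 and 1.46 CPM in NEO1- libraries 1 to 5. It was detected in 5 NEO1+ libraries and had no count in NEO1- libraries 2 and 3, which allows up to 0.140 and 0.102 CPM. NEO1- library 1 alone, with 325 counts, exceeded every NEO1+ library. On the log2 scale the ratio was 0.19 (SE 1.56, edgeR adjusted p 0.9997) with the widest 95% interval, from -3.17 to 3.55, and without NEO1- library 1 it was 2.60 (edgeR p 0.149, adjusted 0.830).

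The apoptosis genes did not separate the groups either. Bax encodes the pore-forming protein of the mitochondrial outer membrane. It was at 51.5, 36.6, 47.2, 42.4 and 53.7 CPM in NEO1+ libraries 1 to 5 and at 33.9, 51.6, 78.8, 48.5 and 38.2 CPM in NEO1- libraries 1 to 5. NEO1- library 3 was high, and all NEO1+ values lay between the extremes of the NEO1- group. For Bax the log2 fold change was -0.12 (SE 0.24, 95% interval -0.63 to 0.39, edgeR adjusted p 0.998) and turned to 0.10 without NEO1- library 3. A GENCODE protein-coding locus on the same strand, Gm45808, overlaps Bax (chr7:45461697-45466898), so their counts may not be separable.

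Bbc3 encodes PUMA, a BH3-only protein that frees BAX from its inhibitors. It was at 16.5, 26.1, 22.4, 13.4 and 24.3 CPM in NEO1+ libraries 1 to 5 and at 13.2, 11.5, 10.2, 22 and 21.3 CPM in NEO1- libraries 1 to 5. NEO1- libraries 1 to 3 were low and libraries 4 and 5 of that group lay within the NEO1+ range. For Bbc3 the log2 fold change was 0.39 (SE 0.35, 95% interval -0.35 to 1.14, edgeR adjusted p 0.951), and it stayed between 0.27 and 0.55 with any 1 library left out.

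**Figure D2:**
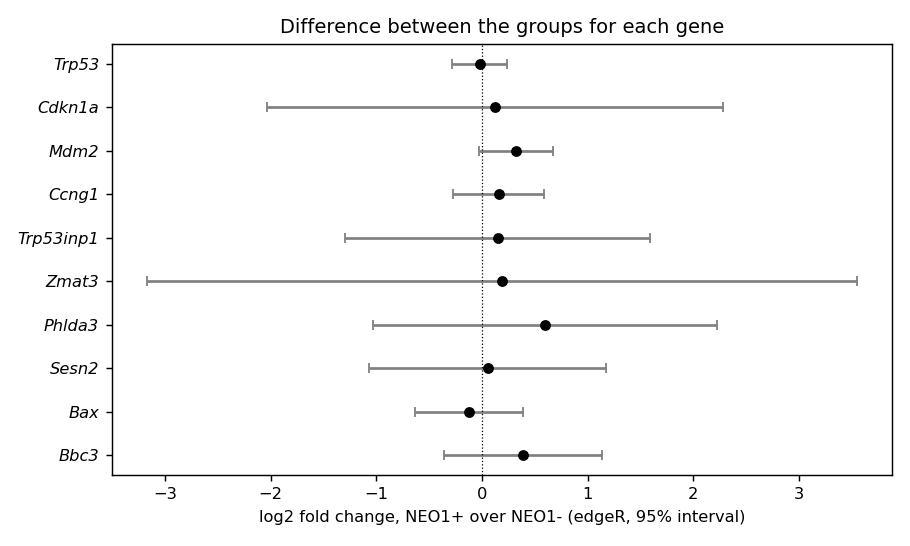
Log2 fold change (NEO1+ over NEO1-, edgeR) of each gene as a point with its 95% interval as a bar; the dotted line marks equal levels. All 10 intervals include 0, and they range from narrow for Trp53 (-0.28 to 0.24) to wide for Zmat3 (-3.17 to 3.55).

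Some libraries were the lowest or highest of their group for several members, NEO1- library 3 most often. NEO1- library 3 had the lowest value of its group for 5 of the 10 genes (Trp53, Cdkn1a, Ccng1, Sesn2 and Bbc3) and the highest for Mdm2, Phlda3 and Bax. For Zmat3 it shared the lowest value, a count of 0, with NEO1- library 2. NEO1+ library 3 was the lowest of its group for Trp53, Mdm2, Trp53inp1 and Sesn2 and the highest for Ccng1. NEO1+ library 5 was the highest for Cdkn1a, Zmat3, Sesn2 and Bax. NEO1+ library 4 and NEO1- library 1 were each the highest of their group for 3 members and the lowest for 2. The libraries numbered 3 have the highest sums of neutrophil and erythroid markers in each group. Trp53 and Sesn2 were lowest in both of them, while Mdm2 and Ccng1 were at opposite extremes. The part of such cells in the values was not tested. In bulk libraries fewer cells that express a gene and less RNA per cell cannot be told apart.

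Compared per length, with CPM divided by the exon length in kb of GENCODE M21, Trp53 stood first at 48.3 CPM per kb over the 10 libraries. Bax followed at 30.6, Ccng1 at 23.3, Mdm2 at 14.7, Bbc3 at 8.52, Sesn2 at 6.04, Phlda3 at 3.94, Cdkn1a at 2.66, Trp53inp1 at 2.01 and Zmat3 at 0.228 CPM per kb. The ranges of all neighbours in this order overlapped between libraries. Within libraries Trp53 was above Bax in 9 of 10, Ccng1 above Mdm2 in 9, Mdm2 above Bbc3 in 10 and Trp53inp1 above Zmat3 in 9, while Phlda3 was above Cdkn1a in 5. The apoptosis gene Bax and the feedback genes Ccng1 and Mdm2 were thus above Cdkn1a and Zmat3 in level per length. The annotation used by the authors is not given in the sources used here, and other exon models would shift these levels.

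**Figure D3:**
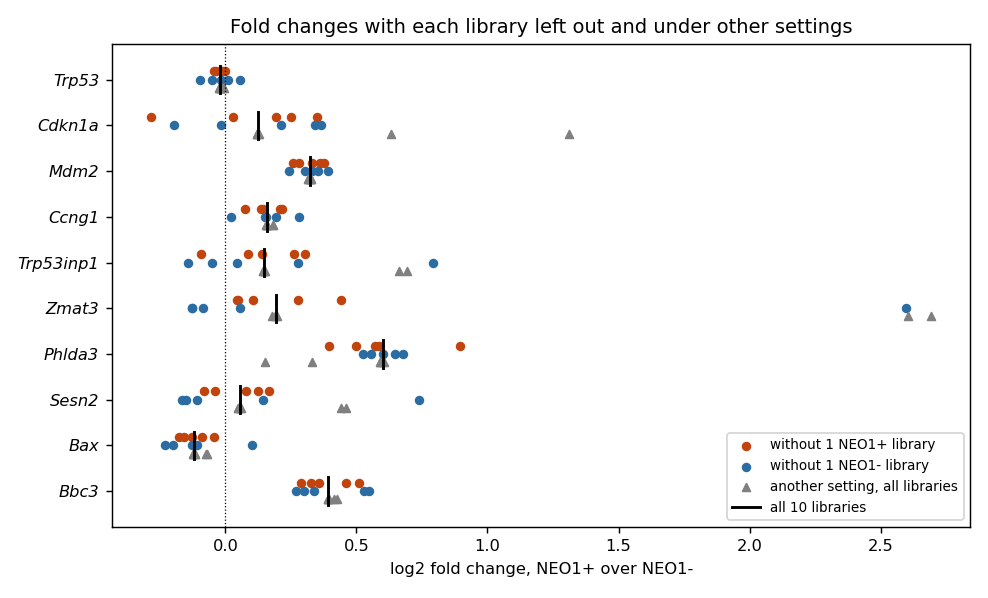
Log2 fold change (NEO1+ over NEO1-) of each gene with all 10 libraries (black line), with 1 NEO1+ library (orange) or 1 NEO1- library (blue) left out, and under 6 other settings (grey triangles; 5 for Zmat3). Mdm2, Ccng1, Phlda3 and Bbc3 stay above 0 throughout, and Zmat3 reaches 2.60 without NEO1- library 1.

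Other genes of the pathway were read from 8 lists of 84 genes in all, of which 78 were tested. None passed an adjusted p of 0.05 in edgeR. Of 41 tested further p53 targets, 24 were above and 17 below 0, with a median log2 fold change of 0.14. Among these, 1 gene had an unadjusted p under 0.05 as higher and 2 as lower in NEO1+, against 3.11% and 3.49% of all genes tested, which is near the background.

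The 9 further targets of feedback and arrest had a median log2 fold change of 0.01, with 5 above and 4 below 0. Those of smallest p were Plk2, a polo-like kinase (81.1 ± 30.3 against 59.5 ± 26.5 CPM, NEO1+ given first here and below, edgeR adjusted p 0.8985), the antiproliferative gene Btg2 (59.8 ± 17.1 and 47.8 ± 10.5 CPM, 0.904) and the kinase gene Plk3 (5.35 ± 3.36 and 2.41 ± 2.92 CPM, 0.983; SD, n = 5 each). Of 10 apoptosis targets, 7 were above 0 and the median was 0.20. Rps27l, a ribosomal protein paralog, was at 52.2 ± 2.79 and 65.0 ± 8.48 CPM (edgeR adjusted p 0.784). Apaf1, the scaffold of the apoptosome, was at 5.81 ± 2.20 and 12.3 ± 8.75 CPM (0.850) and Ei24, an endoplasmic reticulum protein, at 82.99 ± 14.95 and 69.6 ± 12.0 CPM (0.898; SD, n = 5 each). Pmaip1, which encodes the BH3-only protein NOXA, failed the filter, with counts in 3 libraries.

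DNA repair targets (8 tested) had a median of 0.12 with 5 above 0. The translesion polymerase gene Polk was at 20.2 ± 13.7 (NEO1+) against 10.8 ± 6.51 CPM (NEO1-) (edgeR adjusted p 0.872). Rrm2b, a ribonucleotide reductase subunit, was at 14.6 ± 5.31 and 8.49 ± 5.43 CPM (0.892), and the apoptosis inhibitor gene Triap1 at 29.8 ± 4.19 and 38.5 ± 18.5 CPM (0.940; SD, n = 5 each). Of 14 metabolism and redox targets, 7 were above and 7 below 0, with a median of -0.04. The 3 with an unadjusted p under 0.05 were Gpx1, Dcxr and Abhd4. Gpx1, which encodes the peroxide-reducing enzyme glutathione peroxidase 1, was at 591 ± 82.2 and 727 ± 87.8 CPM (edgeR p 0.0174, adjusted 0.604). Dcxr, a sugar reductase, was at 13.1 ± 3.21 and 25.6 ± 11.4 CPM (p 0.0227, adjusted 0.631 in edgeR), and the lipase gene Abhd4 at 107 ± 17.2 and 73.5 ± 25.5 CPM (p 0.0354, adjusted 0.705 in edgeR; SD, n = 5 each).

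Regulators of p53 leaned to lower values in NEO1+ cells, with 13 of 19 below and 6 above 0. The median log2 fold change was -0.16, where 51% of all genes tested were above 0. The list mixes activators and inhibitors of p53, so a shared direction has no single meaning for p53. Cop1, named after its values were seen, had the largest log2 fold change above 0 (0.55, SE 0.27, edgeR p 0.0619, adjusted 0.784). Of the 19, 5 had an unadjusted p under 0.05, all lower in NEO1+, against 3.49% of all genes tested, and none passed adjustment. Rpl5 and Rpl11 encode ribosomal proteins that bind MDM2 and block it. Rpl5 was at 182 ± 17.1 (NEO1+) against 233 ± 41.5 CPM (NEO1-) (log2 fold change -0.35, SE 0.13, edgeR adjusted p 0.600), and Rpl11 at 201 ± 9.26 and 252 ± 47.6 CPM (-0.33, SE 0.12, 0.612; SD, n = 5 each). Both were highest in NEO1- libraries 1 and 2, which also had the highest shares of Rn45s (42.3 and 42.5%) and the lowest TMM factors (0.89 and 0.87), and the part of these in the values was not tested. Ribosomal protein genes have pseudogene copies that can share their reads. Crebbp, a p53 acetyltransferase, was at 38.9 ± 12.8 and 59.1 ± 15.96 CPM (-0.61, SE 0.25, 0.673). The remaining genes, named after their values were seen, were Mdm4, the inhibitor related to MDM2, at 61.0 ± 4.06 and 81.8 ± 21.3 CPM (edgeR adjusted p 0.722), and Trp53bp1, a repair scaffold, at 50.9 ± 13.8 and 70.5 ± 9.99 CPM (0.705; SD, n = 5 each). Mdm2 and Mdm4, whose products act together on p53, thus had fold changes of opposite sign, neither past the threshold. Cdkn2a, which encodes the MDM2 inhibitor p19ARF along with p16, had no count in any library. The p53 relatives Trp63 and Trp73 had counts in 1 library each, at most 0.456 and 0.187 CPM, and were not tested.

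Of 2 genes tied to p53-dependent quiescence of blood stem cells, Ndn (necdin) was at 107 ± 7.86 (NEO1+) against 107 ± 16.8 CPM (NEO1-), a difference of -0.0034 on the log2 scale (SE 0.14). Gfi1, a repressor, was at 40.0 ± 13.9 and 31.0 ± 14.7 CPM (0.37, SE 0.35, edgeR adjusted p 0.957; SD, n = 5 each).

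Cell cycle genes that the DREAM repressor complex holds down, downstream of p21, had higher values in NEO1+ cells throughout the list. All 16 had a log2 fold change above 0, with a median of 1.73, and 7 had an unadjusted p under 0.05, against 3.11% of all genes, although none passed adjustment in edgeR. In 6 of the 16 every NEO1+ library lay above every NEO1- library, against 1.35% of the genes tested. The list was chosen with earlier results of these data known, so these counts describe it and are no independent support. Its genes all belong to the cell cycle and are not 16 separate readings. A link of these values to p53 or p21 was not tested. Cdk1, the mitotic kinase, was at 77.8, 38.9, 46.0, 54.8 and 31.6 CPM in NEO1+ libraries 1 to 5 and at 10, 10.9, 20.1, 17.4 and 18.8 CPM in NEO1- libraries 1 to 5. The groups did not overlap, and the log2 fold change was 1.69 (SE 0.31, edgeR adjusted p 0.155, DESeq2 adjusted p 5.82e-05). Cdc20, an activator of the anaphase ligase, was at 45.6 ± 12.1 and 13.7 ± 9.13 CPM (1.74, SE 0.51, edgeR adjusted p 0.451), and Birc5, which encodes survivin, at 33.4 ± 13.7 and 12.1 ± 7.62 CPM (1.47, SE 0.46, 0.529; SD, n = 5 each). All 16 were also above 0 with Rn45s removed, and the part of the differences in Rn45s share and genes detected between the groups was not tested further. With any 1 library left out, 15 or 16 of the 16 were above 0, and 6 to 8 did not overlap. Groups with fewer libraries part more easily, and the share of all genes was not counted for these fits, so the 1.35% does not apply to them. Beside these values Cdkn1a had its log2 fold change of 0.12 with a wide interval, and the difference between these genes and Cdkn1a was not tested.

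**Figure D4:**
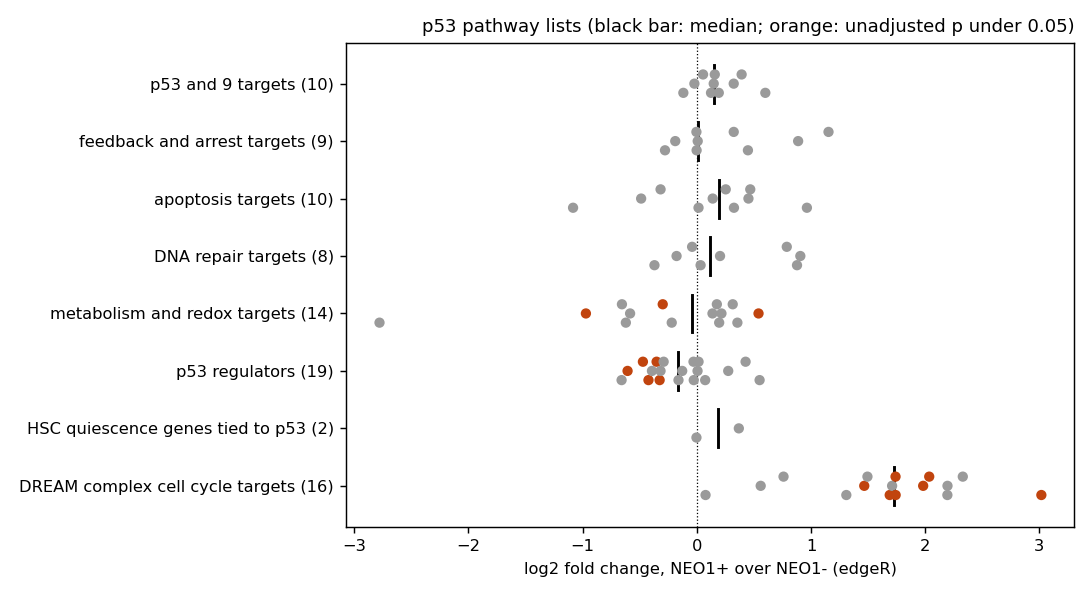
Log2 fold change (NEO1+ over NEO1-, edgeR) of every tested gene in the p53 group and in 7 lists of the pathway, with the number tested in brackets; black bars are medians and orange marks an unadjusted p under 0.05. Medians lie between -0.16 (regulators) and 0.20 (apoptosis targets), apart from the DREAM targets at 1.73.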

How the data were processed

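The authors deposited raw counts per gene symbol and library and, separately, log2 values that their deposited table, by its name, scaled with DESeq2 size factors; each value equalled the log2 of a scaled count plus 1, with 1 constant per library, within 1e-13. The submitters' processing notes name bcl2fastq 2.18, STAR 2.4, DESeq2 1.22.2 and mm10. The counting tool, annotation and strand setting are not given in the sources used here. Per the labels' protocols, libraries were made by Smart-seq2 with 18 PCR cycles. That method adds no molecular identifiers, so floors cover counting error only.

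Genes passing filterByExpr were tested by the robust quasi-likelihood F test of edgeR 4.0.16 (R 4.3.3) after TMM scaling, with Benjamini-Hochberg adjustment over 12203 genes. Standard errors divide the absolute log2 ratio by the root of F, and 95% intervals use the total degrees of freedom of the fit. The fit was tested on simulated data. Alternatives were DESeq2 1.42.0, RLE size factors, no filter, the replicate number as a block, Rn45s removed, limma-trend (limma 3.58.1) on the deposited log2 values and each library left out. Within groups no 2 libraries agreed within sampling noise (chi-square per degree of freedom at least 86.7). No batch is named in the labels.

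The members and lists were chosen with earlier results of these data known. Named genes are the members, up to 3 genes of smallest p per list (all past the threshold, had any passed), Neo1, and the 3 closest profiles for Trp53 and Cdkn1a. Mdm4, Trp53bp1 and Cop1 were added after their values were seen. The search for decamers with 1 mismatch was added too. Coordinates are from GENCODE M21 (GRCm38); Cop1 was matched by its older symbol Rfwd2. A further marker list is not reported here.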

Additional observations from a re-analysis of the deposited data

Results flagged for a closer look

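For the 10 members and 20 pathway genes named by rule, 60 groups of 5 libraries were examined for a single library far from the others (Dixon's test at 95%). Of these, 2 had one, where chance gives about 1 in 20, or 3. Cdkn1a was at -3.98 log2 CPM in NEO1- library 3, which had no count of it, so that the value is set by the prior count of 2, against 2.43 to 3.87 in the other NEO1- libraries. Phlda3 was at -0.44 log2 CPM in NEO1+ library 1, which had 14 counts, against 2.945 to 3.50 in the other NEO1+ libraries.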

How the results depend on the processing

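None of the 10 members passed an adjusted p of 0.05 under any of the 6 other settings or with any 1 library left out (DESeq2 gave Zmat3 no adjusted p). Over all genes DESeq2 called 146, edgeR without a filter 2, limma-trend 1, and edgeR with 1 library left out between 0 and 1 (1 without NEO1- library 1). Among the pathway genes DESeq2 called 2, Cdk1 and Gls2 (log2 fold change 8.01, adjusted p 0.048; counts in 4 libraries, not tested by edgeR). The number of members whose groups did not overlap was 0, and between 0 and 1 with 1 library left out (Phlda3 without NEO1+ library 1). The share of all genes that part with 1 library left out was not counted. The directions of Mdm2, Ccng1, Phlda3 and Bbc3 held throughout, and those of the other 6 members turned only when a library was left out, with log2 fold changes from -0.098 to 0.056 for Trp53, -0.28 to 0.36 for Cdkn1a, -0.14 to 0.79 for Trp53inp1, -0.13 to 2.60 for Zmat3, -0.17 to 0.74 for Sesn2 and -0.23 to 0.10 for Bax. Ndn turned to 0.00023 without the filter, 0.0068 with the replicate block and 0.0017 in limma-trend, and ran from -0.055 to 0.092 with 1 library left out. The other 19 of the 20 pathway genes named by rule kept their direction throughout. Mdm4, Trp53bp1 and Cop1 were not run.

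With the replicate block the log2 fold changes were 0.63 for Cdkn1a, 0.66 for Trp53inp1, 2.60 for Zmat3, 0.33 for Phlda3 and 0.46 for Sesn2 (edgeR adjusted p at least 0.871), and in limma-trend 1.31, 0.69, 2.69, 0.15 and 0.44 in the same order (adjusted p at least 0.609); the cause was not tested. No label states whether same-numbered libraries are paired. Their deviations from the group means correlated at 0.00403 to 0.0359 over 12203 genes. NEO1+ libraries 1, 4 and 5 matched the NEO1- library of their own number best, and libraries 2 and 3 did not. Correlations this low over mostly noisy genes cannot decide whether the libraries were paired. The spread between libraries, with intervals up to the -3.17 to 3.55 of Zmat3, limits what these libraries can show.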
